A study of Mus musculus with 7 samples.

Results

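Committed oligodendrocyte precursors are the short-lived cells between a dividing oligodendrocyte precursor and a myelinating oligodendrocyte, and they were found here as 141 of the 58169 nuclei (0.242%) that passed the filters in 7 brain libraries. A nucleus was counted as a member when it held UMIs of at least 2 of the 4 genes Gpr17, Bmp4, Enpp6 and 9630013A20Rik, with their sum at 10 or more UMIs per 10000 UMIs of the nucleus. It also needed at least 300 detected genes, under 5% mitochondrial UMIs and fewer than 5 UMIs of the neuronal genes Rbfox3 and Snap25 together. The members were thus chosen by the UMIs of these 4 genes, whose values are given below as a description and were not tested.

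The libraries were single-nucleus RNA-seq of fresh-frozen brain tissue (subcortex, thalamus and hippocampus) from 5xFAD +/- mice, which carry human disease transgenes and develop amyloid plaques, and each library came from 1 mouse. All 7 mice carried the transgenes, were 6 months old and had received an adeno-associated virus (AAV) by retro-orbital injection at 4 months. The control AAV group had 3 mice (a male and a female of batch 1 and a male of batch 2), and the ANGPT2 AAV group had 4 (a male and a female of each batch). ANGPT2 encodes angiopoietin-2, which binds the receptor TIE2 on blood vessel cells, and the series asked how it alters the brain of these mice. No mouse without the 5xFAD transgenes and no mouse without AAV was analysed here, so differences below are within plaque-forming, AAV-injected brains.

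Oligodendrocyte precursors divide throughout adult life, and some leave the cell cycle and pass through a committed stage before they make myelin. That stage is known for the receptor GPR17, the secreted ligand BMP4, the choline-releasing phosphodiesterase ENPP6 and the long non-coding RNA 9630013A20Rik. The cells then wrap axons in a sheath built from myelin basic protein and galactolipids, and they switch off the stage's own genes as they do so.

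Promoter sequences are shown for 3 genes of that stage that were not part of the rule and rose in members against both neighbouring classes: the matrix glycoprotein Tnr, the kinase Fyn and the transcription factor Tcf7l2. Each runs from 250 bases before to 50 bases after a transcription start in RefSeq (GRCm38.p6), written 5′ to 3′ on the gene's strand, all 3 on the plus strand. The Tnr window is chr1:159523519-159523818, the Fyn window chr10:39369549-39369848, and the Tcf7l2 window, at a start inside the gene, chr19:55895071-55895370. Capitals mark ACAAAG or its reverse complement CTTTGT in Tnr and Tcf7l2, a core that SOX factors bind, and ATCAAAG or its reverse complement CTTTGAT in Fyn, a core that TCF factors bind.

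Tnr: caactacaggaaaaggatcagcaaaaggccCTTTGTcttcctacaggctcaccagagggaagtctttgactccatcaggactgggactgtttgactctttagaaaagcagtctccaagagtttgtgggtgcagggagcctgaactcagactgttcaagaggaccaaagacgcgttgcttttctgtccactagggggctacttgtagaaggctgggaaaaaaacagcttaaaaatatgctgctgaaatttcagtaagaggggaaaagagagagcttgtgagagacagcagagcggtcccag
Fyn: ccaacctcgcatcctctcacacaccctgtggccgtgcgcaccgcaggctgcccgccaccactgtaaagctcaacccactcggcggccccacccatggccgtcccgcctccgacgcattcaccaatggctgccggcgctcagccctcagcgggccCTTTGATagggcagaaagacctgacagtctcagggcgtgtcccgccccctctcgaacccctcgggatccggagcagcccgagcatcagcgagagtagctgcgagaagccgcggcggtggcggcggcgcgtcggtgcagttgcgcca
Tcf7l2: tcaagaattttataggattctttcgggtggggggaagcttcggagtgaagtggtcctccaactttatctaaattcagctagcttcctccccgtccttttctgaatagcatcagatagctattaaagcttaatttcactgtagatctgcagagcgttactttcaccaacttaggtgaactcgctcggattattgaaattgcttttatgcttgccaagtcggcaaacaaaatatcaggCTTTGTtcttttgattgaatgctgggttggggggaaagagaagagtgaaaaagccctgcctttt

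RefSeq also holds a Tcf7l2 window at the gene's first start (chr19:55741560-55741859), which holds neither core. The first core was present on either strand in 18.7% of the 32851 promoter windows of all genes, and the second in 3.73%. A match to either core is not a match to the other. Of the 15 stage genes listed beside the rule (Neu4, Tcf7l2, Itpr2, Cemip2, Bcas1, Nkx2-2, Fyn, Tnr, Lims2, Casr, Rras2, Sox4, Sirt2, Rap2a and Mycl), 12 matched a window. The SOX core was in 3 of these (Casr, Tcf7l2 and Tnr) and the TCF core in 1 (Fyn), which describes the letters in these windows and not binding. The 3 genes shown are thus all genes with a core in a window. Itpr2 and Sirt2 also rose against both neighbouring classes, and their windows, not shown, hold neither core.

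The libraries held 25466033 to 32526932 UMIs in batch 2 and 65676959 to 100529717 in batch 1, with 6291 to 9622 passing nuclei each. Depth per nucleus followed the batch: the median UMIs of members in batch 1 were 6132 to 8257.5, and those in batch 2 were 2269 to 3439. Members were deeper than the classes they are set against, with medians per library of 1628 to 5933.5 UMIs for oligodendrocyte precursors, 880.5 to 2846 for mature oligodendrocytes and 845 to 2660 for microglia. No member barcode was shared between libraries, while any pair of libraries shared 63 to 134 barcodes among all passing nuclei. A doublet caller marked 9 members, 48 members held UMIs of at least 2 markers of astrocytes, microglia, endothelial or mural cells, 28 also met the mature oligodendrocyte rule given below, and 21 also met the oligodendrocyte precursor rule. The share of members, the mature and precursor contrasts and the treatment comparison were each repeated without these nuclei, apart from the last set.

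Values of the rule genes left no gap at the threshold. The summed rule genes ran from 10.1 to 189 UMIs per 10000 with a median of 29.5, and 76 further nuclei held 2 of the genes below the threshold. The 3 members just inside stood at 10.1, 10.3 and 10.8, and the 3 nuclei just outside at 9.49, 9.50 and 9.93. Of the 141 members, 99 held at least 3 of the 4 genes and 54 held all 4. Only 4 nuclei met the marker part and failed on the neuronal genes alone.

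Enpp6 was detected in 88.7% of members, against 1.48% of 1011 oligodendrocyte precursors, 16.4% of 9488 mature oligodendrocytes and 1.08% of 3134 microglia. 9630013A20Rik, whose gene lies antisense to Pcdh17 (chr14:84458639-84476424, GRCm38), was detected in 89.4% of members and in 6.53%, 0.991% and 0.415% of the same classes. Gpr17 was detected in 78.0% of members, 30.4% of precursors, 0.970% of mature oligodendrocytes and 1.02% of microglia. Bmp4 (chr14:46383520-46390669) was detected in 52.5% of members and in 1.48%, 0.126% and 0.191%. Microglia should lack all 4 genes, so their shares serve as a background level in shallower nuclei, whose source was not tested. The largest shares outside members were Gpr17 in precursors (30.4%), Enpp6 in mature oligodendrocytes (16.4%) and 9630013A20Rik in precursors (6.53%). Bmp4 was at 1.48% or less in each other class. These classes leave out members by rule, which limits their shares of the rule genes.

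Levels are given in CPM, the UMIs of a gene per 1000000 UMIs of the summed nuclei of a class in a library, as the lowest, the median and the highest of the 7 libraries. Bmp4 was at 96.7, 222 and 320 in members, 0, 4.64 and 12.5 in precursors, and 0, 0.874 and 1.18 in mature oligodendrocytes. Gpr17 was at 311, 477 and 898 in members, 66.1, 122 and 163 in precursors, and 3.11, 4.42 and 6.99 in mature oligodendrocytes. Every library placed the members above both classes for these 2 genes. Enpp6 was at 830, 1060 and 1661 in members, 2.70, 4.13 and 5.62 in precursors, and 77.2, 111 and 143 in mature oligodendrocytes. 9630013A20Rik was at 844, 1732 and 3694 in members, 0, 19.3 and 35.1 in precursors, and 1.98, 11.4 and 76.9 in mature oligodendrocytes.

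**Figure D1:**
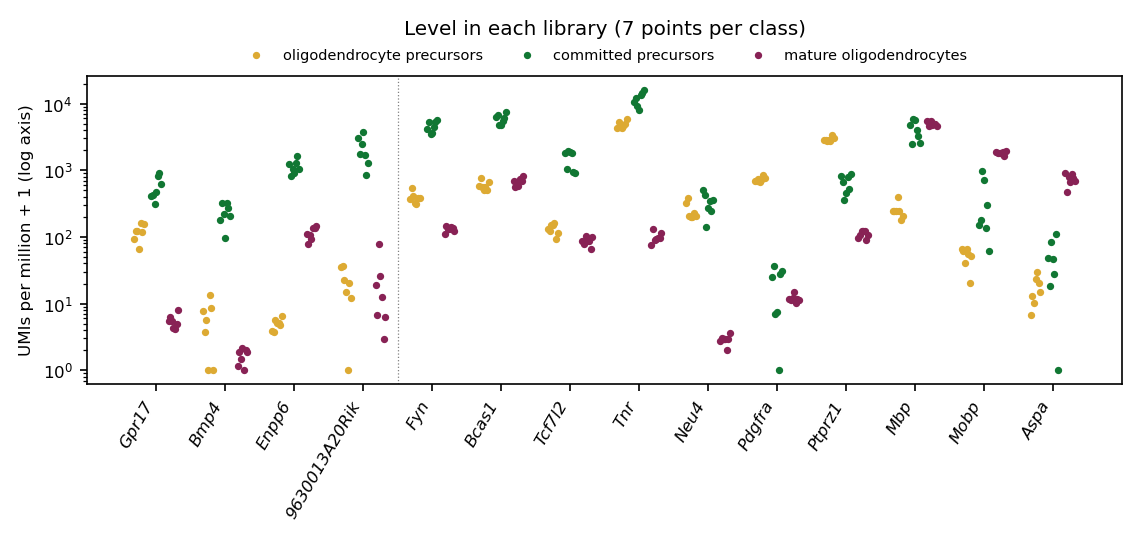
Levels of 14 genes on a log axis (CPM plus 1), with 1 point per library for members, oligodendrocyte precursors and mature oligodendrocytes. The 4 rule genes stand left of the dotted line, and Fyn, at 3520 to 5604 in members, lies above both other classes in all 7 libraries.

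Markers of other cell types were measured in members. Summed neuronal markers stood at 449 to 827 CPM in members, below the 860 to 1107 of precursors and the 1149 to 1639 of mature oligodendrocytes. These markers include Rbfox3 and Snap25, which the class rules cap at the same UMI limit in every nucleus. That limit is stricter in CPM for members, the deeper class, so these sums cannot rank the classes in neuronal RNA. The part of the cap in the lower sum was not tested. Summed astrocyte markers ran from 81.7 to 1163, against 802 to 1249 in precursors, and summed microglial markers from 0 to 320. Endothelial, mural and ependymal markers summed to at most 18.0 CPM in any library. Summed choroid plexus markers ran from 0 to 580 CPM, the highest in the ANGPT2 female of batch 1. The 4 precursor markers (Pdgfra, Cspg4, Vcan and C1ql1) summed to 517 to 1643 in members and 2582 to 2949 in precursors, and the 4 mature markers (Mog, Mag, Mobp and Opalin) to 89.4 to 1682 in members and 3231 to 3951 in mature oligodendrocytes. Pdgfra, the growth factor receptor that defines precursors, was at 0, 23.9 and 35.3 in members and 669, 714 and 861 in precursors.

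Against oligodendrocyte precursors, members were lower in the precursor genes and higher in the stage genes and the myelin genes. Precursors were nuclei with at least 2 of Pdgfra, Cspg4, Vcan and C1ql1 at the same threshold that met neither the members' nor the mature rule. UMIs were added up for each class within each library, and the 7 pairs of sums were compared with edgeR's quasi-likelihood test with the library as a block and Benjamini-Hochberg adjustment at 0.05; all adjusted p-values in the class comparisons come from this test. Of 5934 genes tested, 945 (15.9%) were higher in members and 1238 (20.9%) lower, with a median log2 difference of 0.00 over all genes. The class rules used genes of the same nuclei and both neighbouring contrasts share the member sums, so the 2 sets of values below are given side by side and are not independent of each other.

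The genes known for the committed and newly formed stage, beside the 4 of the rule, were nearly all higher. Of the 15, 13 were tested against precursors, 12 rose and 0 fell, with a median log2 difference of 1.81. Fyn, a Src-family kinase that acts early in myelination (chr10:39368855-39565381), was at 3520, 4454 and 5604 in members and 309, 382 and 542 in precursors, a log2 difference of 3.48 ± 0.16 (SE, n = 7 pairs, adjusted p = 2.37e-19 by edgeR). Tcf7l2, an effector of WNT signalling that differentiating oligodendrocytes express briefly (chr19:55741820-55933654), was at 894, 1787 and 1928 in members and 92.6, 131 and 159 in precursors (3.41 ± 0.18, adjusted p = 9.91e-18 by edgeR). In both genes the lowest member library stood above the highest precursor library. Bcas1, a marker of early myelinating cells (chr2:170346991-170427845), was at 4732, 6152 and 7602 in members against 504, 565 and 756 in precursors (log2 3.27 ± 0.15). Sirt2, a deacetylase of the oligodendrocyte lineage, was at 688, 793 and 1116 against 57.9, 89.5 and 123 (3.16 ± 0.18). Itpr2, an intracellular calcium channel, rose by less (1.59 ± 0.15), and Tnr, the matrix protein tenascin-R (chr1:159523769-159931729), was already abundant in precursors, at 4275, 4654 and 5818 against 8117, 12310 and 15889 in members (1.21 ± 0.14). The sialidase gene Neu4 did not pass, at 138, 347 and 501 in members and 196, 205 and 380 in precursors (0.30 ± 0.18, adjusted p = 0.217 by edgeR), and passed at 0.57 without the 28 members that also met the mature rule.

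Some members of the list rested on few nuclei or on 1 choice. Cemip2, a cell surface hyaluronidase, was at 0, 88.3 and 754 in members, and its log2 difference of 3.18 was 0.31 and no longer passed when the 28 members that met the mature rule were left out. The small GTPase gene Rras2 had a log2 difference of 3.10, which was 1.76 without those nuclei and missed the threshold with DESeq2 at 1.83. The homeobox gene Nkx2-2 (0.95 ± 0.25) missed the threshold with DESeq2 at 0.84 and without the control male of batch 1 at 0.62. Lims2 (1.78 ± 0.26) overlaps Gpr17 on the opposite strand, and since the strand setting of the counting is not given, its reads cannot be told from those of Gpr17. Casr had 1 UMI in all members and was not tested.

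Genes of precursor identity fell as a group. Of 16 such genes, 12 were tested apart from the 4 used to choose precursors, and 11 fell while 1 rose, with a median of -2.64. Ptprz1, a receptor phosphatase of precursors, was at 359, 666 and 864 in members and 2750, 2837 and 3354 in precursors (log2 -2.30 ± 0.17, adjusted p = 1.34e-13 by edgeR). Pcdh15, a protocadherin, was at 180, 533 and 842 against 3940, 4333 and 5214 (-3.23), and Lhfpl3 at 1440, 1786 and 3210 against 6932, 7435 and 9155 (-2.16). The members' highest library lay below the precursors' lowest in each of these 3 genes. Megf11 (-3.58), Emid1 (-4.00), Cacng4 (-2.67), Xylt1 (-2.22) and Sox5 (-1.55) fell as well. The exception was Sox6, a transcription factor of precursors, at 2186, 3251 and 5145 in members and 1767, 2449 and 3079 in precursors (0.37 ± 0.14, adjusted p = 0.0353 by edgeR). Its libraries overlapped, and its call was lost when any library other than the control female or the ANGPT2 male of batch 1 was left out (0.33 to 0.40), with doublets or other cell types' nuclei removed (0.29 and 0.21) and with no count filter (0.18), and held at 0.62 without the members that met the mature rule.

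Most cell division genes were too low in UMIs to be tested. Mki67, a marker of dividing cells, and Top2a, the topoisomerase of replicating DNA, had 0 UMIs among the 809159 UMIs of all members, which allows up to 3.71 CPM by counting error alone. Precursors held 43 UMIs of Mki67 (1.35, 9.63 and 24.8 CPM) and 83 of Top2a (6.75, 12.5 and 44.9). Of the 16 cell cycle genes only Ezh2, a histone methyltransferase, was abundant enough to test against precursors, and it did not pass (0.37). Against mature oligodendrocytes Ezh2, Pcna and Hells were tested, and only Ezh2 passed, as higher (0.85, adjusted p = 0.00208 by edgeR). That call was lost with DESeq2 (0.67), with nuclei holding other cell types' markers removed (0.70) and without the control male of batch 1 (0.64). Ccnd1, cyclin D1, had 1 UMI in members and 263 in precursors, 53.3 times lower (95% counting interval 9.48 to 2113). Hes5, a Notch target, had 2 UMIs in members.

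Myelin genes were already raised. Of 18 listed, 14 were tested against precursors and 13 rose, with a median of 2.08. Nfasc, the axoglial adhesion gene neurofascin, was at 2695, 4168 and 5100 in members and 189, 216 and 293 in precursors (4.08 ± 0.19). Mbp, myelin basic protein, was at 2503, 3947 and 5915 against 178, 244 and 401 (3.92 ± 0.18, adjusted p = 2.80e-19 by edgeR, and 3.41 without the members that met the mature rule), while microglia, which do not make it, held 362, 598 and 657. Microglia thus held more Mbp RNA than precursors did, and every member library stood above every microglial one. Myrf, the transcription factor that switches on myelin genes, was at 59.6, 187 and 193 against 7.72, 15.1 and 29.2 (3.44 ± 0.26). Cnp (2.34), Fa2h (2.12) and Ugt8a (2.04), which encode a membrane phosphodiesterase and enzymes of galactolipid synthesis, rose with them. Mal, a proteolipid of compact myelin, did not pass (27.2, 62.1 and 116 against 15.4, 50.6 and 74.3, log2 0.37, adjusted p = 0.278 by edgeR).

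Among 19 lineage transcription factors 14 were tested, of which 10 rose and 3 fell (median 1.14). The largest rise was that of St18, a zinc finger gene, at 2751, 3648 and 4211 in members and 57.9, 80.5 and 127 in precursors (5.24 ± 0.19, adjusted p = 7.63e-22 by edgeR). Zeb2 (2.09), a repressor that promotes myelination, Zfp488 (1.79) and Sox2 (1.65) also rose. Sox10, a master regulator of the lineage, rose by 0.79, and Olig1 (-0.99) and Olig2 (-0.72), the basic helix-loop-helix factors of the whole lineage, fell. Olig2 was at 53.3, 109 and 149 in members and 111, 199 and 224 in precursors, with overlap between the libraries of the classes.

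Beyond the lists, genes were named by size among those that passed, moved the same way in all 7 libraries and reached 50 CPM in the higher class. Frmd4a, a scaffold gene of cell junctions (chr2:4017717-4614043), was at 10036, 15282 and 19393 in members, 230, 323 and 381 in precursors and 313, 345 and 425 in mature oligodendrocytes (5.57 ± 0.17 and 5.34 ± 0.23, adjusted p = 7.50e-24 and 3.80e-111 by edgeR). Every member library held over 10000 CPM of Frmd4a and no other class above 425. Gm36988 lies inside Frmd4a on the same strand (chr2:4316479-4318886) and Gm13187 on the opposite strand (chr2:4287595-4301167), so reads of the 3 genes cannot be kept apart. Gm36988 was 428 times higher in members than in precursors, which held 3 UMIs (95% counting interval 145 to 2087).

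Kif19a, a kinesin motor gene, was at 107, 238 and 297 in members (log2 5.46 against precursors and 7.14 against mature oligodendrocytes). Pik3r3, a regulatory subunit of PI3 kinase, was at 1072, 2667 and 4466 in members, 40.5, 75.9 and 88.2 in precursors and 42.5, 77.1 and 91.1 in mature oligodendrocytes (4.95 and 4.90). These genes, like Frmd4a, stood apart from both neighbours. The long non-coding RNA 9530059O14Rik (6.32 and 4.29), the focal adhesion gene Parvb (5.98 and 3.78) and the beaded filament gene Bfsp2 (5.15 and 2.91) followed the same pattern. Eya2, a phosphatase and transcription cofactor, was 153 times higher than in precursors, which held 2 UMIs (counting interval 40.6 to 1291), and 5.87 higher on the log2 scale than in mature oligodendrocytes. The kinase gene Cdk18 was high against precursors (5.67) and less so against mature oligodendrocytes (1.10).

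The largest losses against precursors were of genes with few or no UMIs in members. Spry4, an inhibitor of receptor tyrosine kinase signalling, had 0 UMIs in members and was at least 12.4-fold lower, and Tacc2 had 0 UMIs and was at least 22.6-fold lower, both set against a floor of 3 UMIs over all members. Etv5, a transcription factor downstream of that signalling, had 3 UMIs and was 38.3 times lower (counting interval 13.0 to 186). Alk, a receptor tyrosine kinase, had 5 UMIs (log2 -5.10 ± 0.40). Epas1, an oxygen-regulated transcription factor, had 1 UMI and was 92.0 times lower (16.4 to 3641), and Insyn2b had 1 and was 95.8 times lower (17.1 to 3794). Nkain3 (-5.23) and Gm2164 (-5.13) fell by a like amount.

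Against mature oligodendrocytes, members were higher in the stage genes and in most precursor genes, and lower in 6 of the myelin genes. Mature oligodendrocytes were nuclei with at least 2 of Mog, Mag, Mobp and Opalin that met neither other rule. Of 10004 genes tested, 1178 (11.8%) were higher in members and 2031 (20.3%) lower, with a median of -0.16 over all genes. All 14 tested stage genes rose, with a median of 3.89, and they were led by Neu4 at 138, 347 and 501 in members against 1.04, 1.98 and 2.62 (log2 7.36 ± 0.27, adjusted p = 1.77e-154 by edgeR). Tnr was at 8117, 12310 and 15889 against 74.7, 94.9 and 131 (6.81 ± 0.25), and Itpr2 at 1531, 1843 and 2427 against 40.4, 47.2 and 65.0 (5.20 ± 0.23). No library of the classes overlapped in these 3 genes. Fyn (5.03 ± 0.23), Tcf7l2 (3.99 ± 0.22), Sox4 (3.90), Mycl (3.88), Bcas1 (3.04 ± 0.21) and Sirt2 (2.87 ± 0.21) rose by less.

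**Figure D2:**
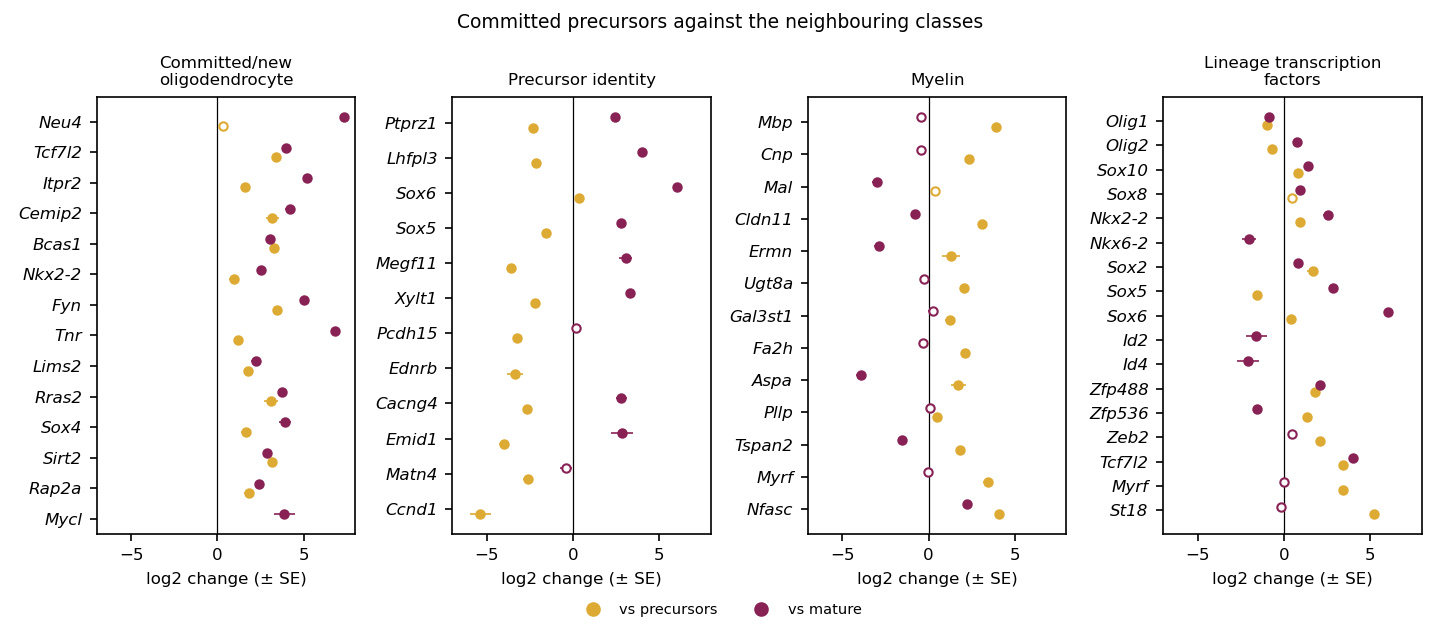
Log2 difference ± SE (n = 7 library pairs) of listed genes in members against precursors (gold) and against mature oligodendrocytes (purple), in 4 panels; filled points passed the adjusted threshold and open points did not. Stage genes lie right of 0 in both contrasts. Precursor genes lie left of 0 against precursors, except Sox6, and right of 0 against mature oligodendrocytes, except Matn4. Mbp passes only against precursors.

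Of 10 precursor genes tested in this contrast 8 rose and 0 fell (median 2.84). Sox6 had the widest step, at 2186, 3251 and 5145 in members against 30.2, 44.9 and 67.2 in mature oligodendrocytes (log2 6.03), while it was at 1767 to 3079 in precursors. Lhfpl3 (4.02), Xylt1 (3.33), Megf11 (3.07), Emid1 (2.86), Sox5 (2.81), Cacng4 (2.80) and Ptprz1 (2.43) rose. Pcdh15 did not pass, at 180, 533 and 842 in members and 304, 405 and 524 in mature oligodendrocytes (0.20 ± 0.21, adjusted p = 0.502 by edgeR), and Matn4 did not pass either.

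Myelin genes fell into 3 sets in this contrast: 1 of 14 tested rose, 6 fell and 7 did not pass (median -0.43). Nfasc was higher in members than in mature oligodendrocytes, at 2695, 4168 and 5100 against 726, 772 and 927 (2.23 ± 0.21). Aspa, which cleaves N-acetylaspartate, was at 0, 45.1 and 109 against 473, 758 and 902 (-3.93 ± 0.28), and Mal at 27.2, 62.1 and 116 against 441, 605 and 848 (-3.00 ± 0.26). These 2 late genes did not overlap between the classes. Ermn, a cytoskeletal protein of the mature sheath (-2.87), Tspan2 (-1.55) and the tight junction gene Cldn11 (-0.76) fell too. Mbp stood at 2503, 3947 and 5915 in members and 4548, 4898 and 5479 in mature oligodendrocytes and did not pass (-0.44 ± 0.20, adjusted p = 0.0803 by edgeR), but its difference was -0.97 and passed when members that met the mature rule were left out. It also passed without the ANGPT2 male (-0.54) or female (-0.56) of batch 1 and in 4 other settings, at -0.50 to -0.76. Without those members the log2 differences were -6.82 for Aspa, -2.59 for Tspan2 and -1.32 for Cldn11. Cnp (-0.43), Fa2h (-0.30) and Ugt8a (-0.28) did not pass with all members and passed as lower without those members (-0.63, -0.53 and -0.61), and Cnp also passed without the control female of batch 1 (-0.61). Myrf did not pass (-0.03 ± 0.22).

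Among the lineage transcription factors 17 were tested against mature oligodendrocytes, of which 9 rose and 5 fell (median 0.75). Zfp488 (2.08), Sox10 (1.41) and Olig2 (0.75) rose, the last with a call lost without the control female of batch 1 (0.61) or nuclei with other cell types' markers (0.59), and Nkx2-2 rose by 2.55. St18 did not pass, at 2751, 3648 and 4211 in members and 3434, 3707 and 4391 in mature oligodendrocytes (-0.20 ± 0.20, adjusted p = 0.492 by edgeR). Nkx6-2 (-2.02), a homeobox factor of myelinating cells, Zfp536 (-1.58) and Olig1 (-0.84) fell. Zfp536 was at 348, 560 and 892 in members, between 181, 221 and 273 in precursors and 1521, 1595 and 1919 in mature oligodendrocytes.

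Among the genes with the largest rise outside the lists, Gm10530 (8.31 ± 0.34) lies inside Tnr on the same strand, and A930009A15Rik (7.93) is antisense to Lgr5. Whether reads of Gm10530 come from Tnr was not tested. Ppfibp1, a liprin of cell adhesion sites, was at 1149, 1840 and 2444 in members (6.68 against mature oligodendrocytes and 1.61 against precursors). Inava (6.76) and Afap1l2 (6.53), an actin filament adaptor, passed against mature oligodendrocytes and not against precursors (0.61 and 0.05). Il33, an alarmin cytokine of mature oligodendrocytes, was at 0, 5.99 and 28.6 in members and 463, 489 and 628 in mature oligodendrocytes (-5.03 ± 0.33). A530053G22Rik had 0 UMIs in members and was at least 18.4-fold lower, against the same floor of 3 UMIs. Other genes that fell were Gm42756 (-5.27, 4 UMIs in members), 9330111N05Rik (-5.18, antisense to Adgrv1) and 4930420G21Rik (-4.66).

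The pathway of BMP4, the members' own ligand, had few genes that could be tested. BMP ligands bind receptors that phosphorylate SMAD proteins, which raise Id genes and inhibitory SMADs. Of 16 pathway genes beside Bmp4, 8 were tested against precursors, with 1 higher and 1 lower (median -0.18), and 11 against mature oligodendrocytes, with 0 higher and 3 lower (median -0.42). Over all genes tested, 15.9% were higher and 20.9% lower against precursors, and 11.8% and 20.3% against mature oligodendrocytes. The pathway genes tested were too few to be told apart from these shares. The receptor gene Bmpr1a was at 0, 81.7 and 150 in members and passed in neither contrast (-0.45 and -0.11), nor did Bmpr2 (-0.34 and -0.31). Smad7, an inhibitory SMAD, was at 0, 58.9 and 174 in members, 12.5, 15.1 and 28.1 in precursors and 193, 207 and 254 in mature oligodendrocytes (2.26 ± 0.39 and -1.36). Its rise missed the threshold with DESeq2 (1.52) and was 1.37 without the members that met the mature rule. The target genes Id2 (-1.61, with 5 UMIs in members) and Id4 (-2.10, with 4) fell against mature oligodendrocytes, calls that were lost with nuclei holding other cell types' markers removed (-1.27 and -1.65), and that of Id2 also in other alternatives, among them without the control male or female or the ANGPT2 female of batch 1 or the ANGPT2 male of batch 2 (-1.59 to -1.35). The target genes Id1 and Id3 had 1 and 2 UMIs in members, Smad6 had 0, and the antagonist Nog had 1.

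WNT and receptor genes moved in both directions. Over all genes tested, 15.9% were higher and 20.9% lower against precursors, and 11.8% and 20.3% against mature oligodendrocytes. The WNT genes tested were too few to be told apart from these shares. Of 18 WNT genes 11 were tested against precursors, with 2 higher (Tcf7l2 and Daam2) and 3 lower (Apc, Nkd1 and Rnf43), and 13 against mature oligodendrocytes, with 3 higher (Tcf7l2, Axin2 and Lrp6) and 3 lower (Apc, Nkd1 and Daam2). Daam2, which acts in WNT receptor complexes, was at 29.4, 81.7 and 168 in members (2.32 and -2.93). Axin2, a feedback target of the pathway, was at 6.45, 27.2 and 35.3 (1.84 against mature oligodendrocytes). The fall of Apc against precursors (-0.45) was lost when any library other than the ANGPT2 males was left out (-0.49 to -0.35). The ligand gene Wnt7a had 0 UMIs in members and 77 in precursors (median 20.1 CPM). Of 16 receptor genes 9 were tested against precursors, with 3 higher and 4 lower (median -0.49), and 12 against mature oligodendrocytes, with 0 higher and 7 lower (median -1.02). Lpar1, a lysophosphatidic acid receptor, was at 0, 133 and 329 in members, 1.35, 5.85 and 11.6 in precursors and 66.8, 155 and 229 in mature oligodendrocytes (log2 4.56 ± 0.32 against precursors and 0.16 against mature oligodendrocytes, where it did not pass). Without the members that met the mature rule these differences were 3.44 and -0.91, and the latter then passed as lower. The rises of Fgfr2 (1.30) and Gpr37 (1.31) against precursors ended without those members, at 0.08 and 0.37. Erbb4, a neuregulin receptor, was at 1933, 2808 and 3610 and passed in neither contrast (-0.32 and 0.44). It passed as lower than precursors in 5 alternatives (-0.52 to -0.39), among them without the ANGPT2 female of batch 1 (-0.42) and without the members that met the mature rule (-0.45). It passed as higher than mature oligodendrocytes in 4 (0.49 to 0.61), among them without any 1 of the batch 2 libraries.

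Within the members, Bmp4 split the nuclei into 74 with a Bmp4 UMI and 67 without, and 7 of 11 tested myelin genes were lower in the nuclei with it. This contrast was chosen after the data were seen, because nuclei with Bmp4 and no Enpp6 numbered only 8, too few for the planned contrast of Enpp6 with Bmp4 nuclei, while 66 held both and 59 held Enpp6 alone. The 7 libraries gave 13, 22, 14, 6, 8, 6 and 5 nuclei with Bmp4 and 11, 7, 12, 16, 8, 5 and 8 without, in the order control male, control female, ANGPT2 male and ANGPT2 female of batch 1, then control male, ANGPT2 male and ANGPT2 female of batch 2. Median depth per library was 2269 to 8390 UMIs with Bmp4 and 2032.5 to 8265.5 without. Nuclei with Bmp4 were the deeper set in every library but the batch 1 ANGPT2 male and the batch 2 ANGPT2 female, and the part of depth in the contrast was not tested. A nucleus without a Bmp4 UMI may still express the gene. Bmp4 is part of the members' rule, so a nucleus without it had to hold at least 2 of Gpr17, Enpp6 and 9630013A20Rik. Enpp6 was also detected in 16.4% of mature oligodendrocytes. The part of the rule in the differences below was not tested. Of the 28 members that met the mature rule, 24 had no Bmp4 UMI.

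Of 1112 genes tested with the library as a block, 92 (8.27%) were higher with Bmp4 and 151 (13.6%) lower, with a median of 0.00. The counts depended on single libraries: 55 and 102 without the control female of batch 1, 39 and 81 without the ANGPT2 male of batch 1, 60 and 96 without the ANGPT2 female of batch 1, and 68 and 91 without the control male of batch 1. Without the 28 members that met the mature rule, 490 genes could be tested, of which 12 were higher and 45 lower. This last setting was chosen after the data were seen, leaves 70 nuclei with Bmp4 and 43 without, and its values stand beside the genes below.

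Myelin genes were lower in nuclei with Bmp4: of 11 tested, 7 fell and 0 rose (median -0.97). Mbp was at 1741, 2909 and 3208 with Bmp4 and 2383, 5289 and 8889 without (-1.10 ± 0.21, adjusted p = 6.43e-04 by edgeR), and still passed without the mature-rule members (-0.79). Nfasc also kept its call there (-0.89 and -0.77), while Ugt8a lost it (-0.97 and -0.83). Mag, a myelin adhesion protein, was at 0, 120 and 174 against 0, 387 and 868 (-2.20 ± 0.35), and Mobp at 0, 24.0 and 521 against 91.7, 337 and 1438 (-2.53 ± 0.44). Mag and Mobp belong to the mature rule, so they could not be tested once its nuclei were removed, and Cldn11 (-1.43) and Tspan2 (-1.96) were too low to be tested there.

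Precursor genes were higher in nuclei with Bmp4 with all members counted, and none kept its call without the mature-rule members. Of 7 tested, 5 rose (median 0.88): Xylt1 (1.23 ± 0.28), Vcan (1.19 ± 0.34), Sox5 (1.00 ± 0.30), Lhfpl3 (0.88) and Sox6 (0.82). Without the mature-rule members their log2 differences were 0.64, 0.61, 0.63, 0.29 and 0.34. Vcan also lost its call without the ANGPT2 male of batch 1 (0.80), Sox5 without the control female (0.82) or the ANGPT2 female (0.85) of batch 1, and Lhfpl3 without the ANGPT2 male of batch 1 (0.77), the ANGPT2 male of batch 2 (0.61) or the control male of batch 2 (0.78). Ptprz1 and Pcdh15 did not pass with all members.

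The stage genes outside the rule did not move as 1 group: of 10 tested, 1 rose and 4 fell (median -0.01). Neu4 was at 208, 510 and 682 with Bmp4 and 62.0, 183 and 274 without (1.28 ± 0.29, adjusted p = 0.00195 by edgeR, and 0.70 with no call without the mature-rule members). Tcf7l2 was at 645, 915 and 1532 against 733, 2211 and 3012 (-1.09 ± 0.27, and -0.77 with no call without them). Fyn, Bcas1, Tnr, Itpr2 and Sirt2 did not pass in either setting. The rule genes are described only: Gpr17 was at 475, 697 and 1095 against 136, 396 and 884, Enpp6 at 721, 1236 and 1825 against 825, 1096 and 1417, and 9630013A20Rik at 682, 1253 and 1845 against 607, 3480 and 4678. Of the transcription factors, Zfp536 was lower with Bmp4 (-1.85, and -1.33 without the mature-rule members).

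Among the genes named by size, Nrg1 was higher with Bmp4, at 1734, 2985 and 4156 against 136, 810 and 2878 (2.08 ± 0.35, adjusted p = 1.50e-04 by edgeR). Nrg1 encodes neuregulin 1, a ligand of ERBB receptors, and it kept its call without the mature-rule members (1.61). Kcnj3, a potassium channel gene, was at 228, 673 and 1194 against 49.6, 202 and 275 (2.09 ± 0.36, and 1.63 without those members). Gm13052, Arsb, Fchsd2 and Lrrtm4 kept their calls as well (0.97, 0.97, 0.90 and 0.94), while Fbn2, Gpc6, Igsf9b and Zfp804a lost them (1.10, 0.70, 0.82 and 1.08). Zfp804a, at 1.48 with all members, also lost its call without the ANGPT2 male (1.07) or the ANGPT2 female (1.53) of batch 1. Sema5b, a semaphorin, was at 104, 288 and 464 against 12.4, 61.7 and 275 (1.84 ± 0.39) and was too low to be tested there.

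Nkain2, a partner of the sodium pump, was the most abundant gene that fell, at 930, 1279 and 5279 with Bmp4 and 2979, 12346 and 18088 without (-2.93 ± 0.27, adjusted p = 7.25e-08 by edgeR, and -2.90 without the mature-rule members). Gas7, a growth arrest gene of the cytoskeleton, was at 0, 50.8 and 301 against 137, 793 and 1562 (-3.31 ± 0.36, and -2.96). Mob3b (-2.76 and -3.06), Abr (-1.97 and -1.70), Cnksr3 (-1.90 and -1.20) and Auts2 (-1.89 and -1.62) kept their calls too. Thsd4 (-2.95), Bach2 (-2.29), Secisbp2l (-1.96) and Plekha1 (-1.92) passed with all members, and Plekha1 overlaps Fgfr2 on the opposite strand.

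**Figure D3:**
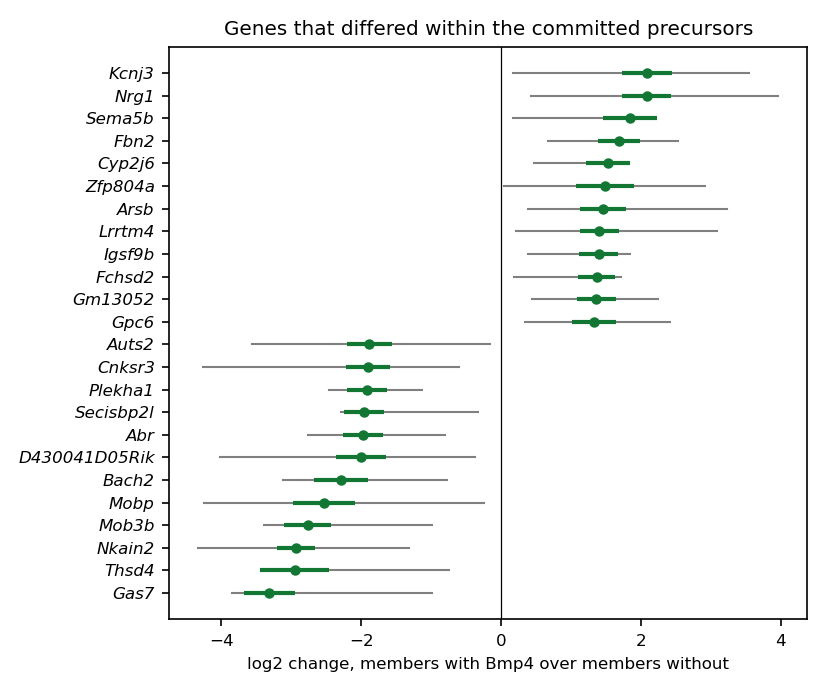
Log2 difference between members with and without a Bmp4 UMI for 24 genes named by size; the point is the fitted value, the thick bar its SE and the grey line the range over the 7 libraries. Nrg1 (2.08) and Kcnj3 (2.09) stand at the top and Gas7 (-3.31) at the bottom, with all members counted.

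The share of committed precursors was compared between ANGPT2 and control mice. Members made up 0.265%, 0.379% and 0.166% of passing nuclei in the control libraries (male and female of batch 1, male of batch 2) and 0.341%, 0.230%, 0.175% and 0.156% in the ANGPT2 libraries (male and female of batch 1, male and female of batch 2). The 95% exact binomial interval, which covers counting error only, was widest for the control female of batch 1, at 0.254% to 0.543%. The groups overlapped, and the 3 libraries of batch 2 held the lowest shares. The means were 0.270% ± 0.106 (SD, n = 3) and 0.225% ± 0.0835 (SD, n = 4), a difference of -0.0446 percentage points (two-sided exact permutation test, p = 0.486, adjusted p = 0.486 over 2 tests, smallest possible p 0.0286). The difference within batch 1 was -0.0363 points and within batch 2 -0.00102, and it turned to 0.00972 without the control female of batch 1.

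As a share of the oligodendrocyte lineage (members, precursors and mature oligodendrocytes), members made up 1.07%, 2.08% and 1.41% in control libraries and 1.43%, 1.11%, 1.35% and 1.04% in ANGPT2 libraries. The means were 1.52% ± 0.512 (SD, n = 3) and 1.23% ± 0.185 (SD, n = 4), a difference of -0.286 points (two-sided exact permutation test, p = 0.400, adjusted p = 0.486). The high value belonged to the control female of batch 1, and without it the difference was -0.00737. Within batch 1 the difference was -0.305 and within batch 2 -0.213. It was -0.747 among nuclei with at least 1000 UMIs and -1.21 with every nucleus thinned to 1000 UMIs (two-sided exact permutation tests, p = 0.257 and 0.171). Of the members, 9 of 69 in control and 19 of 72 in ANGPT2 libraries also met the mature rule, 12 of them in the ANGPT2 male of batch 1. Bmp4 was detected in 13 of 24, 22 of 29 and 8 of 16 members of the control libraries and in 14 of 26, 6 of 22, 6 of 11 and 5 of 13 of the ANGPT2 libraries.

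**Figure D4:**
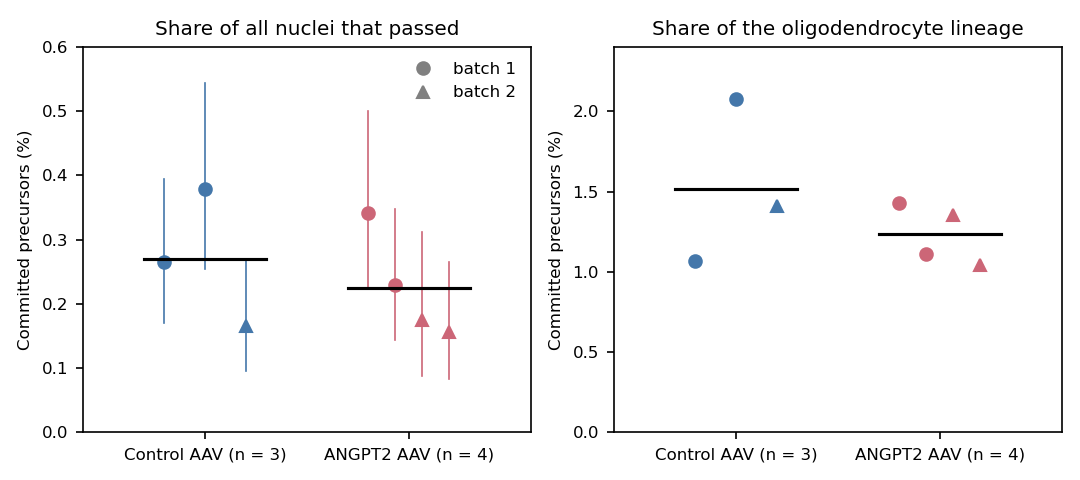
Members as a percent of passing nuclei (left, with 95% exact binomial bars) and of the oligodendrocyte lineage (right), 1 point per library with the symbol giving the batch and a black line for the group mean. The control female of batch 1 is the highest point in both panels, at 0.379% and 2.08%.

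No gene passed the threshold between ANGPT2 and control members, and the median difference of the members' stage genes was -0.05. Summed counts of the 7 libraries were compared with treatment as the only term, and 0 of 3048 genes (0%) were higher or lower by edgeR's quasi-likelihood test with Benjamini-Hochberg adjustment; DESeq2 also called 0, with 49 at an unadjusted p under 0.05. At an unadjusted p under 0.05 edgeR gave 127 genes (4.17%), 76 higher (2.49%) and 51 lower (1.67%). The libraries of the groups did not overlap for 70 genes (2.3%) higher with ANGPT2 and 81 (2.66%) lower, and the median log2 difference of all genes was 0.03. In simulated data of this design the test recovered 24 of 100 genes changed 2-fold and 90 of 100 changed 4-fold, so smaller changes were not detectable at this depth in most genes. Summed microglial markers in members were at 124 to 320 CPM in control and 0 to 89.4 in ANGPT2 libraries, summed astrocyte markers at 177 to 377 and 81.7 to 1163, summed choroid plexus markers at 95.5 to 240 and 0 to 580, and their part in the values below was not tested gene by gene. With the nuclei that held at least 2 astrocyte, microglial, endothelial or mural markers removed, edgeR called 0 genes as well, with 48 at an unadjusted p under 0.05.

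Rule genes are described without a test. Bmp4 was at 181, 318 and 320 CPM in control and 222, 96.7, 272 and 209 in ANGPT2 libraries, and Gpr17 at 411, 424 and 827 and at 311, 477, 898 and 626. Enpp6 was at 1246, 830 and 1280 and at 1060, 909, 1661 and 1043, and 9630013A20Rik at 2998, 1732 and 1707 and at 2437, 3694, 844 and 1282. The groups overlapped in all 4. Among the 13 tested stage genes, Fyn (-0.03 ± 0.26), Tcf7l2 (-0.07 ± 0.34), Itpr2 (0.01) and Tnr (0.00 ± 0.26) lay near 0. Neu4 was at a lower mean with ANGPT2 and did not pass (-0.85 ± 0.34, unadjusted p = 0.0230, adjusted p = 0.998 by edgeR), at 501, 418 and 347 in control and 138, 271, 245 and 358 in ANGPT2 libraries, which overlapped.

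None of the other lists held a called gene. The 8 tested precursor genes had a median of -0.25, the 15 myelin genes 0.28 with 12 above 0, the 14 transcription factors -0.05, the 5 BMP genes 0.43, the 9 WNT genes 0.11, and the 4 receptor genes 0.90. Within batch 1, 12 of the 15 myelin genes were above 0 (median 0.58), and within batch 2, 7 were (median -0.19). The receptor genes had medians of 0.97 in batch 1 and -0.00504 in batch 2, and the WNT genes 0.27 and -0.42. In the same order the medians were -0.47 and 0.14 for precursor genes, -0.10 and -0.09 for transcription factors and 0.24 and 0.56 for BMP genes. The log2 difference of Mbp was 0.26 ± 0.33 over all libraries, 0.75 within batch 1 and -0.34 within batch 2. Gpr37, a receptor of maturing oligodendrocytes, was at 19.1, 11.8 and 26.7 in control and 41.9, 83.8, 109 and 89.4 in ANGPT2 libraries, which did not overlap (2.02 ± 0.66, adjusted p = 0.968 by edgeR). These levels rest on 4, 2 and 1 UMIs in control and 7, 13, 4 and 3 in ANGPT2 libraries.

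The genes with the smallest p-values are named although none passed. Among the higher ones, Ptprd, a receptor phosphatase of synapse formation, was at 645, 583 and 347 in control and 2538, 1766, 1198 and 566 in ANGPT2 libraries (1.54 ± 0.41, adjusted p = 0.882 by edgeR). A single nucleus held 203 of the 424 Ptprd UMIs of the ANGPT2 male of batch 1, another 110 of the 274 of the ANGPT2 female of batch 1, and the difference was 0.45 without the members that met the mature rule. Creb5, a transcription factor, was at 76.4, 29.4 and 26.7 and at 389, 342, 27.2 and 0 (2.29 ± 0.64, adjusted p = 0.882 by edgeR). Mobp was at 148, 177 and 133 and at 964, 722, 299 and 59.6 (1.87 ± 0.52). Its 161 and 112 UMIs in the ANGPT2 male and female of batch 1 came from 15 and 9 nuclei. A single nucleus held 69 of them in the male and another 53 in the female. For Creb5 in the same libraries, single nuclei held 31 of 65 and 21 of 53 UMIs. For Creb5 and Mobp the excess lay in the batch 1 pair, where the differences were 2.53 and 2.26, against -0.59 and 0.15 for batch 2. The same 2 libraries held 12 and 5 of the 19 ANGPT2 members that met the mature rule. Mobp is itself a gene of the mature rule, so leaving out such members takes out nuclei chosen partly by their Mobp UMIs. Without such members Creb5 and Mobp fell below the count filter and were not tested, and the difference of Mbp was 0.01. The cause of the excess was not tested. With the batch as a replicate block, Creb5 alone passed (2.60, adjusted p = 0.0477 by edgeR), and with block and sex 3 genes passed, Creb5 (2.67), Ptprd (1.75) and Mobp (2.11). These 3 also passed with no count filter (2.22, 1.50 and 1.84).

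**Figure D5:**
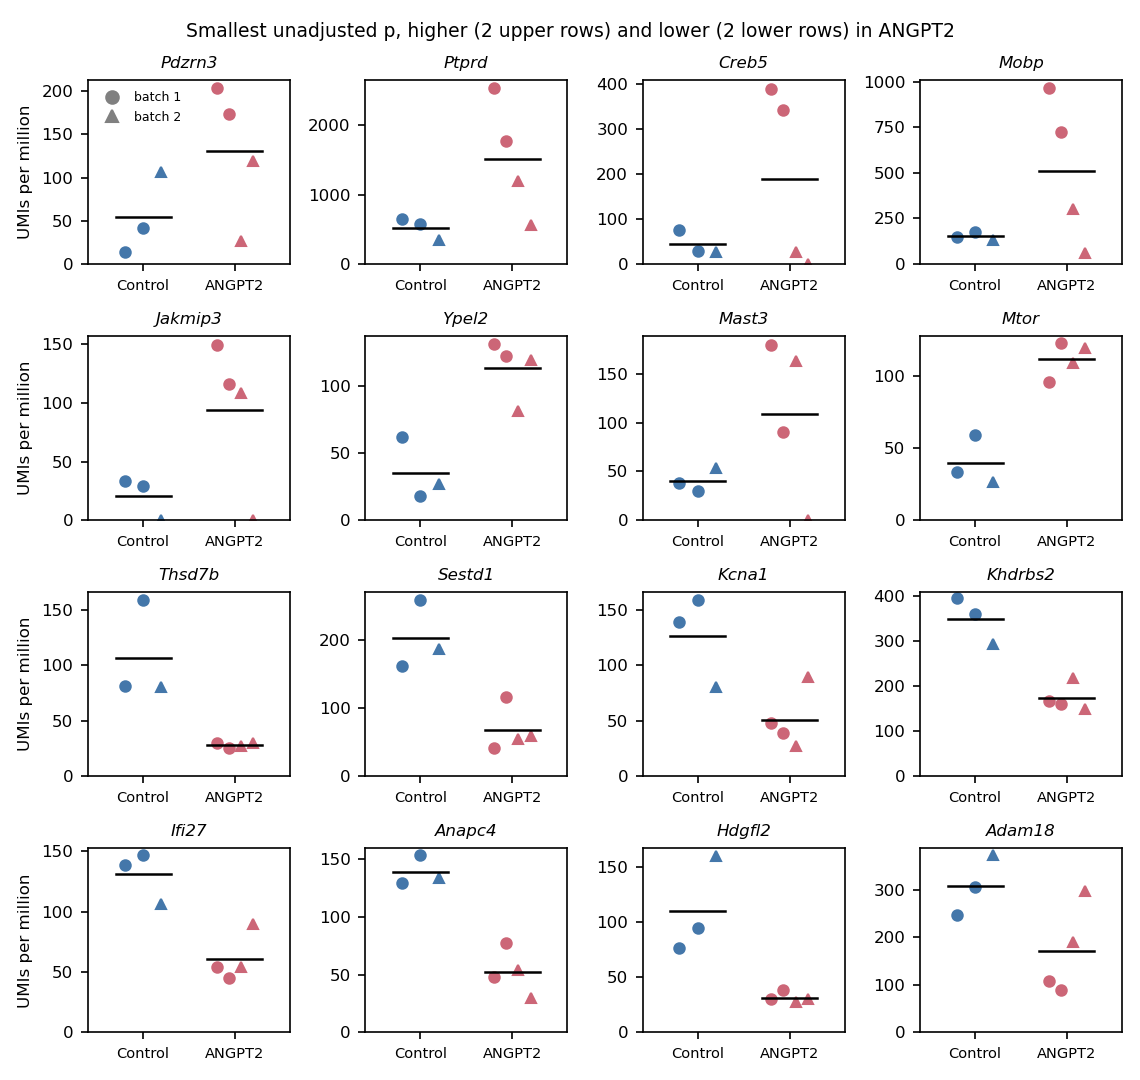
Levels (CPM) in each library of the 16 genes with the smallest p between ANGPT2 and control members, 8 higher in the upper rows and 8 lower in the lower rows, with a line for the group mean. None passed. Thsd7b lies at 25.8 to 29.9 in the 4 ANGPT2 libraries and at 80.0 to 159 in the 3 control libraries. Its ANGPT2 values rest on 5, 4, 1 and 1 UMIs.

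Ypel2 and Mtor did not overlap between the groups: Mtor, the growth-regulating kinase, was at 33.4, 58.9 and 26.7 in control and 95.8, 122, 109 and 119 in ANGPT2 libraries (means of 39.7 and 112, n = 3 and 4), a log2 difference of 1.34 ± 0.42 (unadjusted p = 0.00486, adjusted p = 0.968 by edgeR). Mtor had 7, 10 and 1 UMIs in control and 16, 19, 4 and 4 in ANGPT2 libraries. Pdzrn3 (2.08 ± 0.56) was higher in batch 1 only, with differences of 2.27 and -0.58, and Jakmip3 (1.98) was at 0 in 1 library of each group. Among the lower genes, Thsd7b, a thrombospondin domain gene, was at 81.2, 159 and 80.0 in control and 29.9, 25.8, 27.2 and 29.8 in ANGPT2 libraries (-1.95 ± 0.48, unadjusted p = 6.93e-04, adjusted p = 0.882 by edgeR). Thsd7b had 17, 27 and 3 UMIs in control and 5, 4, 1 and 1 in ANGPT2 libraries. A single UMI thus set its level in both ANGPT2 libraries of batch 2. Khdrbs2, an RNA-binding splicing regulator, was at 396, 359 and 293 against 168, 161, 218 and 149 (-1.05 ± 0.30). In both genes every ANGPT2 library lay below every control library, as it did for Sestd1 (-1.46 ± 0.40), Ifi27 (-1.30), Anapc4 (-1.24) and Hdgfl2 (-1.48). Kcna1, a potassium channel gene, overlapped, at 138, 159 and 80.0 against 47.9, 38.7, 27.2 and 89.4 (-1.53).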

How the data were processed

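Single-nucleus RNA-seq counts were used from 7 libraries, 1 mouse each. The deposited values are unnormalized UMI counts for every gene in every barcode, made by the authors with Cell Ranger 6.1.2 on mm10 (GRCm38), per the submitters' processing notes. The strand setting of the counting is not given in the sources used here. Barcodes with at least 300 genes and under 5% mitochondrial UMIs were kept. Classes were set by marker rules and not by clustering, with fewer than 5 UMIs of Rbfox3 and Snap25. Doublets were called per library from simulated doublets among nearest neighbours and were kept, with their removal as an alternative. Counts of a class were added up within a library and tested with edgeR 4.0.16 (quasi-likelihood, TMM, filterByExpr with a minimum count of 10 and a minimum total of 15, Benjamini-Hochberg over all genes tested), leaving out the rule genes. The class contrasts used the library as a block and the treatment comparison used treatment only. Shares were compared with exact permutation tests over libraries.

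The groups were taken from the labels, which also name the batch (replicate 1 or 2) and the sex. Because the labels give the batch, a fit with the batch as a replicate block was run as an alternative, and deviations of libraries across the groups correlated at -0.177 to 0.177 for the same batch. The members and gene lists were chosen with earlier results of these data known. Genes beside the lists were named by a rule: the 12 largest log2 differences in each direction of a class contrast among genes with an adjusted p under 0.05, the same direction in every library and at least 50 CPM, and the 8 smallest p-values in each direction for treatment. Alternatives were DESeq2 1.42.0, no count filter, sex as a term, leaving out each library, at least 3 rule genes, removal of doublets or of nuclei with other cell types' markers, at least 1000 UMIs, and thinning to 1000 UMIs for shares. The contrast by Bmp4 and the removal of members that met the mature rule were chosen after the data were seen. The test was tested on simulated data with known changes: of 100 genes changed 2-fold and 100 changed 4-fold, it recovered 66 and 98 against precursors (5945 genes), 39 and 94 against mature oligodendrocytes (10016 genes) and 65 and 100 for Bmp4 (1116 genes). A few genes counted within the lists are not reported here by name. Fitted SEs come from the same fits. Intervals are 95% exact (Clopper-Pearson) intervals and, like the floor of 3 UMIs, cover counting error only. Python 3.11.15, numpy 2.4.6, pandas 2.3.3, scipy 1.17.1, scikit-learn 1.9.0 and R 4.3.3 were used. Coordinates are those of GENCODE release M21 on GRCm38, and promoter windows are from RefSeq on GRCm38.p6.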

Additional observations from a re-analysis of the deposited data

Results flagged for a closer look

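Fam107b was the only gene whose difference between members and mature oligodendrocytes itself differed between ANGPT2 and control mice, by a test of the interaction. Fam107b encodes a stress-responsive protein of little known function. Its UMIs in members were 1, 1 and 0 in the control libraries (male and female of batch 1, male of batch 2) and 18, 28, 0 and 0 in the ANGPT2 libraries (male and female of batch 1, male and female of batch 2). In mature oligodendrocytes it stood at 12.2, 13.5 and 32.1 CPM in control and 18.5, 9.04, 15.8 and 33.2 in ANGPT2 libraries. The interaction was 4.32 ± 0.847 on the log2 scale (SE, adjusted p = 0.00346 by edgeR's quasi-likelihood test with Benjamini-Hochberg adjustment), as 1 of 10004 genes, and 394 had an unadjusted p under 0.05. The excess lay in 5 and 7 nuclei of the ANGPT2 libraries of batch 1 and was absent from both ANGPT2 libraries of batch 2. A single nucleus held 11 of the 18 UMIs of the male, and another held 10 of the 28 of the female. Of the 5 and 7 nuclei, 4 and 7 had no Bmp4 UMI. Against oligodendrocyte precursors, 0 of 5934 genes passed the same test by edgeR and 246 had an unadjusted p under 0.05; no other tool was run for the interaction. Of 18 groups of 4 ANGPT2 libraries examined for a library far from the others, 0 had one, where chance would mark about 1 in 20.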

How the results depend on the processing

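The precursor and mature contrasts kept their counts within 1.5 times of the reported ones in every alternative run: 649 to 947 higher and 921 to 1850 lower against precursors, and 927 to 1223 and 1591 to 2355 against mature oligodendrocytes. Of the named and listed genes, none that passed in a reported contrast changed sign; 79 genes that had not passed, counted per contrast, did so under some alternative, and of these 1 then passed, Lpar1 against mature oligodendrocytes (0.16, and -0.91 without the members that met the mature rule; the cause was not tested). The counts by Bmp4 moved most: 92 higher became 47 with no count filter, 54 with DESeq2, 39 to 133 when each library was left out and 12 without the members that met the mature rule, and 151 lower became 81 to 190 and 45; fewer genes (490) were tested in the last, and otherwise the cause was not tested. Between ANGPT2 and control, 0 genes higher became 7 with no filter (14969 genes tested), 1 with the replicate block, 3 with replicate block and sex, and 41 with at least 3 rule genes, where 0 lower became 1. The last fit dropped both ANGPT2 libraries of batch 2, which held 9 and 6 such members. The 1 gene of the block was among the 3, and all 3 were among the 7. Leaving out each library gave 0 in both directions each time. The difference in the share of passing nuclei (-0.0446 points) turned to 0.00972 without the control female of batch 1, with a range of -0.0965 to 0.00972 over the libraries left out; permuted within the batch as the replicate block it was -0.0187 (exact permutation p = 0.333), and the share of the lineage -0.259 (p = 0.389). Thinned to 1000 UMIs the share differed by -0.0799 points (exact permutation p = 0.286, 0.243% in control and 0.163% in ANGPT2), with 439 to 2563 shallower nuclei left out per library, and the share of the lineage by -1.21 points (p = 0.171). The planned contrast of members with Enpp6 and no Bmp4 against those with Bmp4 and no Enpp6 was not run, since 1 library had at least 5 nuclei of both. Depth limits genes with few UMIs, and the treatment comparison rests on 3 and 4 unpaired mice.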

Other observations

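Genes of the mature oligodendrocyte's response to disease were mostly lower in members than in mature oligodendrocytes. Of 10 listed, 8 were tested against mature oligodendrocytes, 7 fell and 1 rose (median -1.58, against -0.16 over all genes). Over all genes tested in that contrast, 20.3% were lower in members and 11.8% higher. Against precursors 5 of the list were tested, of which 1 rose and 1 fell (median 0.23). Trf, the iron carrier transferrin, was at 0, 105 and 163 CPM in members (lowest, median and highest library) and 803, 1000 and 1081 in mature oligodendrocytes (log2 -3.23), and the complement gene C4b at 0, 12.9 and 64.8 against 29.7, 72.5 and 214 (-2.05). Apoe, a lipid carrier, fell in both contrasts (-1.74 against mature oligodendrocytes and -1.01 against precursors), at 76.4, 119 and 188 in members. Serpina3n and Klk6 had 2 and 3 UMIs in members. The exception was Cd9, a tetraspanin, at 168, 293 and 537, which rose in both contrasts (1.43 and 1.26). Antigen presentation and interferon genes split: of 9 tested against mature oligodendrocytes, 2 rose, Rnf213 among them (1.42), and H2-D1 (-1.29) and B2m (-1.30) fell, while H2-D1 was at -0.50 and B2m at -0.78 with no call once nuclei with other cell types' markers were removed. Against precursors 0 of 3 passed.

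Cholesterol synthesis genes, which feed myelin membranes, showed little change for the group: of 17 tested against mature oligodendrocytes 1 rose and Insig1 fell (-1.48), with a median of -0.25, and of 6 against precursors Fdft1 rose (0.91). The call of Fdft1 was lost in several alternatives. Shares over all genes tested were 15.9% higher and 20.9% lower against precursors, and 11.8% and 20.3% against mature oligodendrocytes. The tested genes of the lists that follow were too few to be told apart from these shares. Unfolded protein response genes had 2 of 12 lower against mature oligodendrocytes, Hspa5 (-0.61, a call lost with any library left out other than the control female or the ANGPT2 male of batch 1, at -0.65 to -0.50, among nuclei with at least 1000 UMIs and with at least 3 rule genes) and Dnajb9, which had 2 UMIs in members, and 0 of 7 called against precursors. The angiopoietin receptors Tek and Tie1 had 0 UMIs in members, and Angpt2 had 1, against 49 in precursors. The list of angiopoietin and hypoxia genes had 3 of 6 lower against precursors: Angpt1 (-2.37, with 8 UMIs in members), Epas1 and the integrin gene Itgav. Itgav was at 27.2, 82.5 and 90.3 in members, 187, 311 and 340 in precursors and 104, 140 and 172 in mature oligodendrocytes (-1.98 and -1.03). Vegfa, a growth factor gene of blood vessels, was at 0, 38.2 and 59.6 in members and rose against mature oligodendrocytes (1.33) and not against precursors (-0.55).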
